A study of Zea mays with 2 samples.

Results

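Hypersensitive sites lying around the maize centromeres were chosen by position. A site entered when the summit of its peak, the base with the most signal, fell in a 30 Mb window set about the approximate centromere of its chromosome. The windows ran over 122 to 152 Mb on chromosome 1, 81 to 111 Mb on chromosome 2, 71 to 101 Mb on chromosome 3, 95 to 125 Mb on chromosome 4 and 91 to 121 Mb on chromosome 5. They ran over 38 to 68 Mb on chromosome 6, 41 to 71 Mb on chromosome 7, 36 to 66 Mb on chromosome 8, 40 to 70 Mb on chromosome 9 and 37 to 67 Mb on chromosome 10. Positions are 1-based, on B73 RefGen_v4. The windows held 4582 of the 66801 sites in the authors' merged list, or 6.86%, while taking up 14.2% of the 2106 Mb that the peaks span. In the list of replicate 1 they held 5442 of 74443 peaks (7.31%), and in that of replicate 2 they held 4023 of 60518 (6.65%).

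The sites come from MH-seq of B73, the inbred maize line behind the reference genome. Both libraries belong to 1 group: leaf of plants aged 10 days, digested with 100 U of micrococcal nuclease (MNase) after formaldehyde fixation, with fragments of 40 to 100 bp recovered. Leaves came from 10 plants. The labels name leaf as the tissue and seedling as the source. They leave it unsaid whether each replicate had its own plants, and spreads over the 2 replicates may be technical ones. The p-values, and the spreads over chromosomes, do not measure variation between plants. No digested naked DNA, other tissue or other genotype was analysed here, and there is no comparison between conditions.

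MNase cuts DNA that nucleosomes do not protect, so short fragments freed by a light digestion mark open chromatin, where regulatory proteins can bind. A centromere is the chromosome region that holds the kinetochore and is defined by nucleosomes carrying the histone variant CENH3. In maize it is rich in the satellite repeat CentC and in CRM retrotransposons. The pericentromere on either side is made up largely of nested retrotransposons, carries few genes and seldom recombines. The lists hold no CENH3 data and no sequence, so the window centres could not be checked against a centromere mark, and the windows are called by position throughout.

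Sites were sparse in every window and sparsest close to the centre. Merged summits averaged 15.3 ± 2.63 per Mb in the windows (mean ± SD over 10 chromosomes) and 34.5 ± 1.55 per Mb over the rest of the same chromosomes. The windows were the lower of the pair on 10 of 10 chromosomes, with a mean log2 ratio of -1.20 ± 0.23, or 2.29-fold lower. Flipping the signs of the chromosome differences in every way, an exact two-sided permutation test, gave p = 0.00195, the smallest it can give, and an adjusted p of 0.00586 (Benjamini-Hochberg over 18 tests of this kind). Replicate 1 held 18.1 summits per Mb in the windows and 38.2 in the rest, pooled over chromosomes. Replicate 2 held 13.4 and 31.3. The mean of the replicates in the windows was 15.8 ± 3.34 per Mb (SD, n = 2). The ranges of windows and of rest did not overlap in any of the 3 lists: the highest window of replicate 1 reached 21.8 per Mb, and the lowest rest of a chromosome in replicate 2 was 28.3 per Mb. Read totals are not part of the lists, so depth is unknown and absence of a peak does not show absence of open chromatin.

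**Figure D1:**
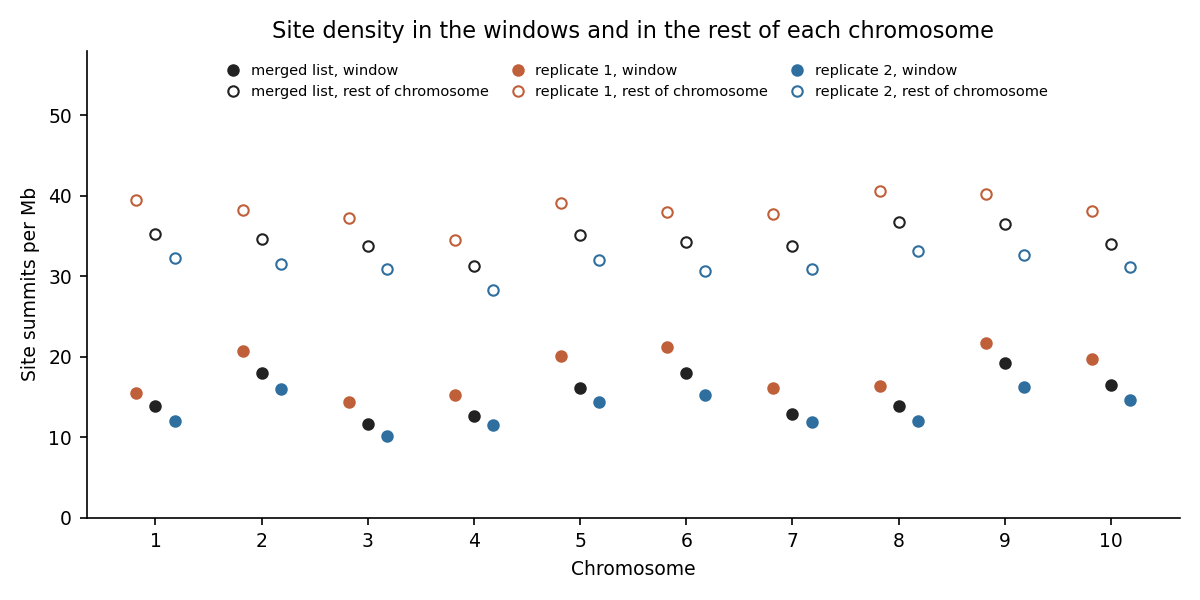
Site summits per Mb (vertical axis) in the window (filled points) and in the rest of the chromosome (open points) for each of the 10 chromosomes, in the merged list, replicate 1 and replicate 2. Every filled point lies below every open one; merged windows run from 11.7 to 19.2 per Mb.

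Chromosome 3 had the emptiest window, with 350 merged sites or 11.7 per Mb, and chromosome 9 the fullest, with 576 or 19.2 per Mb. Chromosomes 2 and 6 came next to chromosome 9, with 18.03 and 17.9 per Mb. Chromosomes 4 and 7 stood near the bottom, with 12.6 and 12.8. The windows carried between 4.09% of a chromosome's merged sites, on chromosome 1, and 10.9%, on chromosome 9. Chromosome 4, whose rest was also the sparsest at 31.2 per Mb, held 379 sites in its window. The windows covered 0.373% of their length with merged peaks and the rest of the chromosomes 0.847%.

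The contrast was smaller against the sequence next to the windows. In the 15 Mb on either side of the windows there were 22.7 merged summits per Mb, and against these flanks the windows were 1.49-fold lower (mean log2 ratio -0.58, lower on 10 of 10, exact test, adjusted p = 0.00586). The window edge itself is no boundary in the data. The outermost 1 Mb inside, at 14 to 15 Mb from the centre, held 20.6 merged summits per Mb with a median width of 219.5 bp, and the first 1 Mb outside held 18.4 with a median width of 222.5 bp. No genome sequence of this build was used, so how much of each window reads can be placed in was not tested.

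Within the windows, density climbed with distance from the centre. In steps of 3 Mb outwards, merged summits numbered 630, 814, 920, 1054 and 1164 over equal lengths. The densities were 10.5 ± 2.61, 13.6 ± 3.396, 15.3 ± 3.82, 17.6 ± 4.47 and 19.4 ± 3.99 per Mb (mean ± SD over 10 windows). The innermost step was the least dense on 8 chromosomes and the second step on the other 2, chromosomes 7 and 10, whereas the densest step was one of the outer 3 on every chromosome. In replicate 1 the same steps held 13.1, 16.3, 18.7, 20.1 and 22.6 summits per Mb. In replicate 2 they held 9.33, 11.8, 13.8, 15.4 and 16.8. Both lists therefore rise at each step, by 1.73-fold in replicate 1 and 1.80-fold in replicate 2 from the first step to the last.

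Set against 10 to 15 Mb from the centre, the zone within 5 Mb held fewer sites on 10 of 10 chromosomes. It had 11.4 ± 2.30 summits per Mb against 18.6 ± 4.00, a mean log2 ratio of -0.69 ± 0.42 or 1.62-fold lower (exact sign-flip p = 0.00195, adjusted p = 0.00586). The drop was steepest on chromosome 8, with 81 sites against 214 over equal lengths. On chromosome 1 there were 90 against 187. The drop was slight on chromosome 7, with 121 against 128, and on chromosome 3, with 113 against 124. The innermost 1 Mb on either side of the centre held 152 merged sites over 10 windows, 7.60 per Mb. There the count per window was 2 on chromosome 8, 8 on chromosome 4 and 23 on chromosomes 2 and 6.

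**Figure D2:**
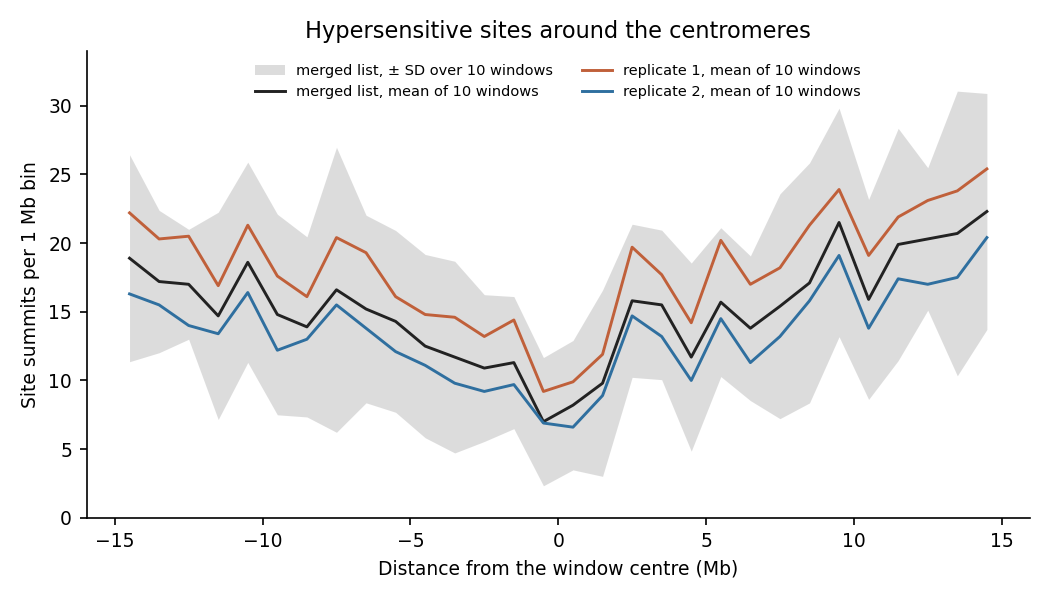
Mean number of site summits per 1 Mb bin over the 10 windows (vertical axis) by distance from the window centre in Mb, for the merged list, replicate 1 and replicate 2; the grey band is ± SD over windows for the merged list. The merged mean is 7 in the bin just left of the centre and 22.3 in the last bin on the right.

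The 10 windows did not share one shape. A sliding span of 3 Mb, moved in steps of 100 kb, found its fewest merged sites with its midpoint within 1.5 Mb of the centre on 5 chromosomes, 3, 4, 5, 8 and 9. On chromosome 8 this span held 9 sites, on chromosome 4 12 and on chromosome 5 14. On chromosomes 1, 2 and 6 the span lay 2.90, 2.20 and 2.50 Mb to the left of the centre. On chromosome 10 it lay 4.70 Mb to the left. On chromosome 7 it lay 9.70 Mb to the right, with 13 sites, so the sparsest stretch of that window is not at its given centre.

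In 7 windows the sides differed by more than 1.3-fold. Chromosome 7 held 267 merged sites left of its centre and 118 to the right. Chromosome 10 held 166 and 328, chromosome 1 held 157 and 260, and chromosome 5 held 285 and 200. The sides of chromosomes 8 and 9 were close to equal, with 213 and 204 sites and with 282 and 294. These are counts in 1 genome, and no test was made of the sides.

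**Figure D3:**
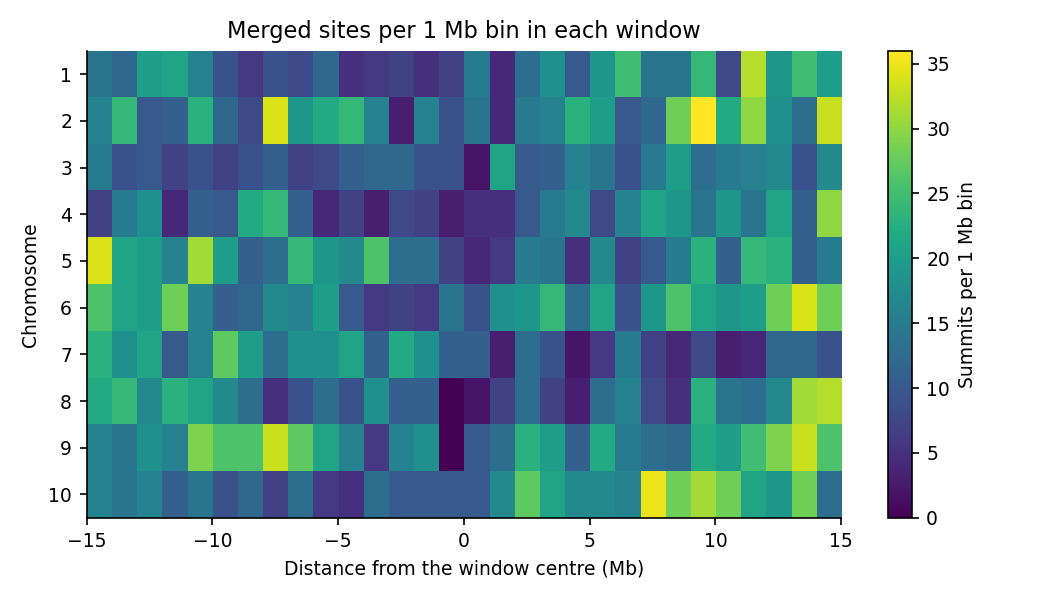
Merged site summits per 1 Mb bin (colour) in the window of each chromosome (rows) by distance from the window centre in Mb. The bins just left of the centre on chromosomes 8 and 9 are empty, and on chromosome 3 low bins are spread over the left side; counts run from 0 to 36.

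Single 1 Mb bins of the windows had a median of 14.5 merged sites (interquartile range 10 to 20, 300 bins). The fullest, on chromosome 2 at 105000001 to 106000000, held 36 sites, with 40 in replicate 1 and 33 in replicate 2. Chromosome 10 at 59000001 to 60000000 followed with 35. Bins without a merged site were those just left of the centre on chromosomes 8 and 9, where replicate 1 had 2 and 1 summits and replicate 2 had 0 and 1. On chromosome 3 the bin just right of the centre held 2 sites. Of the 18 bins with fewer than 5 merged sites, 10 were among the 60 bins within 3 Mb of a centre.

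Long stretches without a site were gathered here. Of 516 gaps over 250 kb between neighbouring merged summits in the whole genome, 236 (45.7%) began in the windows, and of 61 gaps over 500 kb, 40 (65.6%) did. The windows take up 14.2% of the length that the peaks span. The longest gap of the genome, 2388191 bp, began outside them. Within 5 Mb of a centre there were 109 gaps over 250 kb, against 48 at 10 to 15 Mb. The longest stretch of each window measured between 469 kb, on chromosome 6, and 1558 kb, on chromosome 8, with a median of 762 kb. Its midpoint lay within 1 Mb of the centre on chromosomes 5, 8 and 9, and within 5 Mb on 7 chromosomes. On chromosomes 3 and 4 it lay 11.9 and 11.5 Mb to the left, and on chromosome 6 it lay 6.67 Mb to the right. On chromosome 8 (49881039 to 51438676) and on chromosome 9 (53675826 to 55158644, 1483 kb) the stretch spanned the centre itself. The 10 stretches held 30 summits of replicate 1 and 8 of replicate 2 in all.

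The gap that contained the centre ranged from 28.7 kb on chromosome 10 to that of chromosome 8, with a median of 284 kb. The site nearest to a centre lay 4.46 kb away on chromosome 7 (55995433 to 55995711, 279 bp, fold enrichment 13.0). Fold enrichment is the authors' deposited ratio of signal to the peak caller's background. On chromosome 2 the nearest site lay 16.2 kb from the centre and was the strongest of the 10, with a merged fold enrichment of 17.5, one of 18.2 in replicate 1 and one of 15.5 in replicate 2 (96016076 to 96016521, 446 bp). On chromosome 10 it lay 14.2 kb away, was 82 bp wide and reached 5.07, and it had a counterpart in replicate 1 alone. Of the 10 nearest sites, 6 had a counterpart in both replicates, 3 in replicate 1 alone and 1 in replicate 2 alone. A site was called within 50 kb of the centre on 5 chromosomes. The centres are midpoints of windows set in whole Mb about approximate centromeres. These distances are therefore to a coordinate and not to a measured centromere.

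Neighbouring sites mostly lay far apart, while the share with a close neighbour was not lower in the merged list. The median distance from a merged summit to the next was 29331 ± 6858 bp in the windows and 10633 ± 731 bp in the rest (mean ± SD of 10 chromosome medians). Windows had the longer median on 10 of 10, by a mean log2 ratio of 1.43 ± 0.30 or 2.70-fold (exact test by sign flips, p = 0.00195, adjusted p = 0.00586). Replicate 1 gave medians of 25890 and 9659 bp and replicate 2 gave 31668 and 11662 bp. Within 5 Mb of the centre the median was 37783 ± 10471 bp against 25633 ± 10123 bp at 10 to 15 Mb, longer on 8 of 10 (exact test by sign flips, p = 0.0234, adjusted p = 0.0527), which did not pass.

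The share of summits whose next summit lay within 1 kb was 18.97% in the windows (869 of 4582, Wilson 95% interval 17.9 to 20.1%) and 17.7% in the rest (17.4 to 18.02%). Over chromosomes it averaged 18.7% ± 2.32 and 17.7% ± 0.482. The difference was 0.973 ± 2.17 percentage points, higher on 6 of 10 chromosomes, and did not pass the test (exact sign-flip p = 0.203, adjusted p = 0.261). Its sign and call depended on the list and on the comparison: it was -0.768 points in replicate 1 (exact test, adjusted p = 0.397) and 2.81 points among merged peaks found in both replicates (adjusted p = 0.00502). Among gaps of at most 10 kb, 51.7% were 1 kb or shorter in the windows, against 36.2% in the rest. In replicate 1 these shares were 49.97% and 36.0%, and in replicate 2 they were 54.6% and 37.1%. In the merged list, gaps of at most 10 kb followed 1682 of 4582 summits in the windows and 30426 of 62219 in the rest. The share among them depends on how rare gaps of 1 to 10 kb are as well as on close neighbours. It was not tested.

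Close neighbours in the windows were mostly 600 to 1100 bp apart. The best filled class there was 700 to 800 bp, with 151 pairs of merged summits, and there were 140 at 800 to 900 bp and 136 at 900 to 1000 bp. At 400 to 500 bp, the most populated class in the rest of the chromosomes with 1485 pairs, the windows held 81. Taken in 2 equal ranges, the windows held 397 pairs at 100 to 600 bp and 634 at 600 to 1100 bp, a ratio of 1.60. The rest of the chromosomes held 6851 and 6204, a ratio of 0.906. The distance ranges were chosen after the distances had been seen, so the values are a description with no test.

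The excess at 600 to 1100 bp was present in both libraries and in all 10 windows. The ratio was 1.52 in replicate 1 and 1.68 in replicate 2 (mean 1.60 ± 0.110, SD, n = 2), against 0.887 and 0.854 in the rest. By chromosome it averaged 1.66 ± 0.345 in the windows and 0.906 ± 0.0419 in the rest, and it was above the rest of its own chromosome in 10 of 10 windows. The highest ratio was that of chromosome 7, with 47 pairs at 600 to 1100 bp and 22 at 100 to 600 bp. Chromosomes 5 and 10 followed at 2.03 each, and chromosome 8 was the lowest at 1.04, with 50 and 48 pairs. The ratio was 1.71 within 5 Mb of the centre, 1.49 at 10 to 15 Mb and 1.22 in the 15 Mb flanks outside the windows. Replicate 1 gave 1.60, 1.53 and 1.24 for the same zones, and replicate 2 gave 1.67, 1.63 and 1.28. Both lists place the windows above the flanks; within the windows the zones differ by little.

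**Figure D4:**
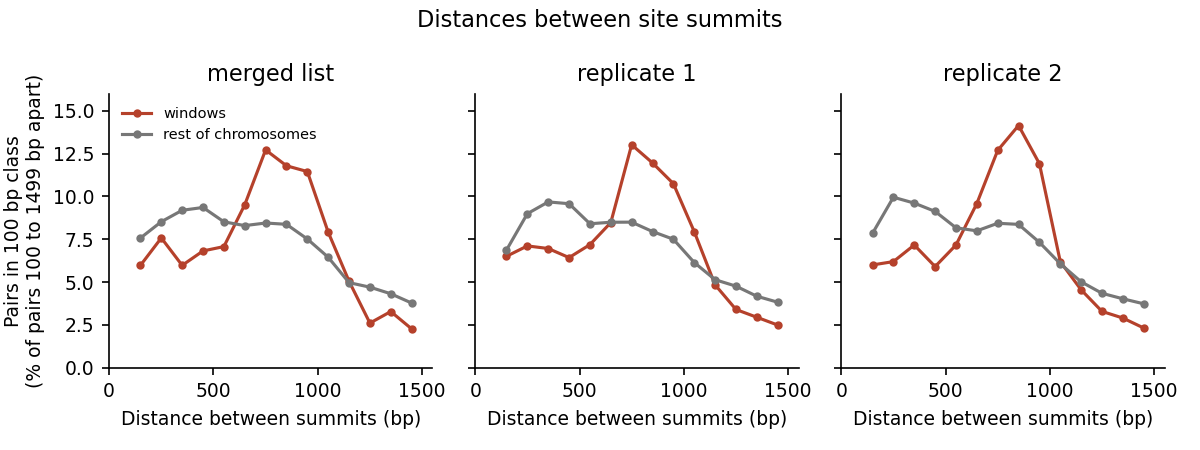
Pairs of site summits by the distance between them in bp (horizontal axis, 100 bp classes) as a percentage of all pairs under 1500 bp and at least 100 bp apart (vertical axis), in the windows and in the rest of the chromosomes, for the merged list and each replicate. The windows are highest between 700 and 900 bp in each list, and the rest is highest below 500 bp.

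Sites of these pairs had larger medians of width and fold enrichment than all sites of the windows, 222 bp and 7.99; the classes were chosen after their values were seen and were not tested. In the windows, 1110 merged sites (24.2%) had an adjacent summit at 600 to 1100 bp on at least one side and none at 100 to 600 bp. Their median width was 286 bp and their median fold enrichment 8.96, and 87.5% had a counterpart in both replicates. The 644 sites with an adjacent summit at 100 to 600 bp and none at 600 to 1100 bp had medians of 161 bp and 6.81 and a counterpart in both replicates in 66.3%. The 1701 sites with no neighbour within 10 kb lay between, with 210 bp, 8.06 and 72.2%. Peaks of 400 to 500 bp made up 17.8% of the first class, 4.04% of the second and 7.29% of the third. In the rest of the chromosomes the first class took in 15.2% of sites, with a median width of 247 bp and 11.5% at 400 to 500 bp. The second class there had a median width of 181 bp, with 4.48% at 400 to 500 bp. A counterpart in both replicates was found there for 79.7% of the first class, 69.2% of the second and 76.5% of the third. The order of the classes in recurrence was thus the same as in the windows. Median fold enrichment there was 7.60, 6.76 and 8.63, so outside the windows the third class was the strongest. Summits 100 to 600 bp apart leave little room for wide peaks unless the peaks overlap. The width contrast between the first and second classes is thus partly set by their definition, and was not tested as a property of the sites.

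Runs of sites each within 1 kb of the next were short. Of 774 such runs in the windows, 693 (89.5%) were pairs, and 2939 sites (64.1%) belonged to none. The longest run held 6 sites in 1509 bp on chromosome 9 (57398098 to 57399606), 2.40 Mb from the centre. It held 5 summits in each replicate, and its strongest peak had a fold enrichment of 18.8. Sites with no neighbour within 50 kb on either side numbered 647, or 14.1% of sites in the windows, and 4.07% of those elsewhere.

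Site width was close to that of the rest of the genome, but the answer depended on the library. The median merged width was 222 bp in the windows and 220 bp in the rest. Over chromosomes the medians averaged 222.6 ± 8.37 and 219.6 ± 4.01 bp, and the difference of 3.00 ± 11.5 bp did not pass the test (higher on 6 of 10 chromosomes, exact test by sign flips, p = 0.439, adjusted p = 0.494). In replicate 1 alone the windows had the narrower peaks, 169 against 186 bp, by -17.1 bp on average and on 10 of 10 (exact test, adjusted p = 0.00502). In replicate 2 the medians were equal at 184 bp. By distance step outwards the merged medians were 229, 224, 225, 217 and 220 bp. Within 5 Mb of the centre and at 10 to 15 Mb they were 220 and 219 bp (mean difference over chromosomes 1.55 ± 35.4 bp, exact sign-flip p = 0.898, adjusted p = 0.898).

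Some width classes took unequal shares. Peaks of 60 to 100 bp, about the length of the sequenced fragments, made up 16.7% of merged sites in the windows, 19.3% within 5 Mb of the centre and 12.8% in the rest. Peaks of 400 to 500 bp made up 9.41%, 10.2% and 7.71%. Peaks of 500 bp or more made up 5.26%, 4.98% and 5.28%, so the widest sites were no larger a share in the windows. These classes were chosen after the widths were seen and were not tested. Peaks under 130 bp, a limit taken from the dip in the widths of the whole list, made up 25.4% (24.2 to 26.7%) in the windows and 22.6% (22.2 to 22.9%) in the rest. In replicate 1 these narrow peaks were 41.1% in the windows and 33.7% in the rest, and in replicate 2 they were 31.4% and 31.6%. The excess of narrow peaks in the windows is thus a feature of the replicate 1 and merged lists. The widest site, on chromosome 2 at 106158575 to 106159692 (1118 bp), was 1106 bp wide in replicate 1 and 593 bp in replicate 2.

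The strength of sites in the windows differed between the lists. The median fold enrichment of merged peaks was 7.98 ± 0.163 in the windows and 7.44 ± 0.101 in the rest (mean ± SD of 10 chromosome medians). It was higher on each of the 10, by 0.534 ± 0.186 (exact test by sign flips, p = 0.00195, adjusted p = 0.00586). The peaks of replicate 1 did not show it, with a difference of 0.018 and an adjusted p of 0.856 by the exact test (higher on 6 of 10). Those of replicate 2 did, with 0.647 (higher on 10 of 10, exact test, adjusted p = 0.00586). Against the 15 Mb flanks the merged difference was 0.202 (exact test, adjusted p = 0.134). The strongest quintile of the merged list supplied 24.0% of the sites in the windows and 19.7% of those in the rest. In replicate 1 the weakest quintile supplied 23.1% of the peaks in the windows and 19.8% of those in the rest, and in replicate 2 it supplied 16.4% and 20.3%. From within 5 Mb to 10 to 15 Mb the medians were 8.30 ± 0.652 and 7.87 ± 0.278, and this difference did not pass the test (0.426 ± 0.859, higher on 6 of 10, exact sign-flip p = 0.152, adjusted p = 0.211).

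Of the 10 strongest merged sites genome-wide, 4 lay in the windows, as did 12 of the strongest 100 and 81 of the strongest 1000. The last 2 counts are 12% and 8.1%, against 6.86% of all merged sites, so the share fell towards that of the whole list. On chromosome 7 a site of 126 bp (46267171 to 46267296), 9.73 Mb from the centre, reached 87.1, with 85.7 in replicate 1 and 83.7 in replicate 2. On chromosome 10 a site of 137 bp (48840973 to 48841109), 3.16 Mb from the centre, had 79.6, 86.0 and 72.3. These rank 2 and 3 in the merged list. A site of 240 bp on chromosome 1, 11.3 Mb from its centre, had 42.8, and a site of 92 bp on chromosome 2, 2.04 Mb from its centre, had 38.1.

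Weaker sites of the 10 were also of varied width. On chromosome 4 a site of 316 bp (101280993 to 101281308) had 35.1 in the merged list, with 41.5 in replicate 1 and 23.2 in replicate 2. On chromosome 8 a site of 141 bp (48875526 to 48875666), 2.12 Mb from the centre, had 28.6, with 33.8 and 19.6. On chromosome 9 a site of 154 bp (57436608 to 57436761), 2.44 Mb from the centre, had 27.5, with 28.2 and 20.3. The other 3, of 331 to 368 bp, lay more than 12 Mb from a centre on chromosomes 2 and 4, with 26.6 to 26.8. All 10 had a counterpart in both replicates, and the 4 within 5 Mb of a centre were all under 200 bp wide. That width holds for these 4 only. The next strongest site within 5 Mb, on chromosome 9 (57391980 to 57392359), was 380 bp wide and had 26.1. The 10 sites were picked for their strength in the list made from both replicates, so their recurrence is a description.

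Replicate recurrence differed between the libraries. Of replicate 1 peaks in the windows, 3511 of 5442 overlapped a replicate 2 peak by at least 1 bp, 64.5% (Wilson 95% interval 63.2 to 65.8%), against 69.5% over the whole list. Of replicate 2 peaks in the windows, 3531 of 4023 overlapped a replicate 1 peak, 87.8% (86.7 to 88.7%), against 86.5% over the whole list. Intervals cover counting error only. Replicate 1 thus recurred less often in the windows than elsewhere, by -5.42 ± 2.44 percentage points on average over chromosomes and on 10 of 10 (exact sign-flip p = 0.00195, adjusted p = 0.00586). For replicate 2 the difference was 1.21 ± 2.17 points, higher on 8 of 10 (exact sign-flip p = 0.0664, adjusted p = 0.123). The list of replicate 1 is also the longer, by 1.35-fold in the windows and 1.22-fold in the rest. Cut to equal numbers of strongest peaks, the replicate 1 difference was -1.34 points (exact test, adjusted p = 0.199).

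The shortfall lay among weak peaks. Peaks were ranked by fold enrichment in the whole list and divided into quintiles. In the weakest quintile, 15.3% (13.5 to 17.4%) of replicate 1 peaks in the windows recurred, against 26.2% (25.4 to 26.9%) in the rest, and in the second 38.5% (35.5 to 41.6%) against 51.4% (50.6 to 52.2%). In the third quintile the shares were 77.6% and 79.1%, in the fourth 95.8% and 94.4%, and in the strongest 99.2% (98.5 to 99.5%) and 98.2% (97.9 to 98.4%). In replicate 2 the weakest quintile recurred in 56.5% and 60.8% and the strongest in 99.6% and 99.2%. With the quintiles weighted equally, the replicate 1 difference was -4.48 ± 2.14 points, lower on 10 of 10 chromosomes (exact test by sign flips, p = 0.00195, adjusted p = 0.00586), and the replicate 2 difference -1.25 ± 1.83 points, lower on 8 of 10 (exact sign-flip p = 0.0684, adjusted p = 0.123). Against the 15 Mb flanks the weighted replicate 1 difference was -1.92 points and did not pass (exact test, adjusted p = 0.134), and with equal numbers of strongest peaks it was -2.81 points and passed (adjusted p = 0.0234). With both lists cut to peaks with a deposited −log10 q of at least 20, the direction turned. Replicate 1 peaks left in the windows recurred more often, by 8.01 points unweighted (exact test, adjusted p = 0.00586). With the quintiles weighted equally the difference was 3.15 points (exact test, adjusted p = 0.0293). The limit left 43966 replicate 1 and 33150 replicate 2 peaks over the whole lists. It thus also removed possible partners, and these values are not recurrence against the full replicate 2 list.

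**Figure D5:**
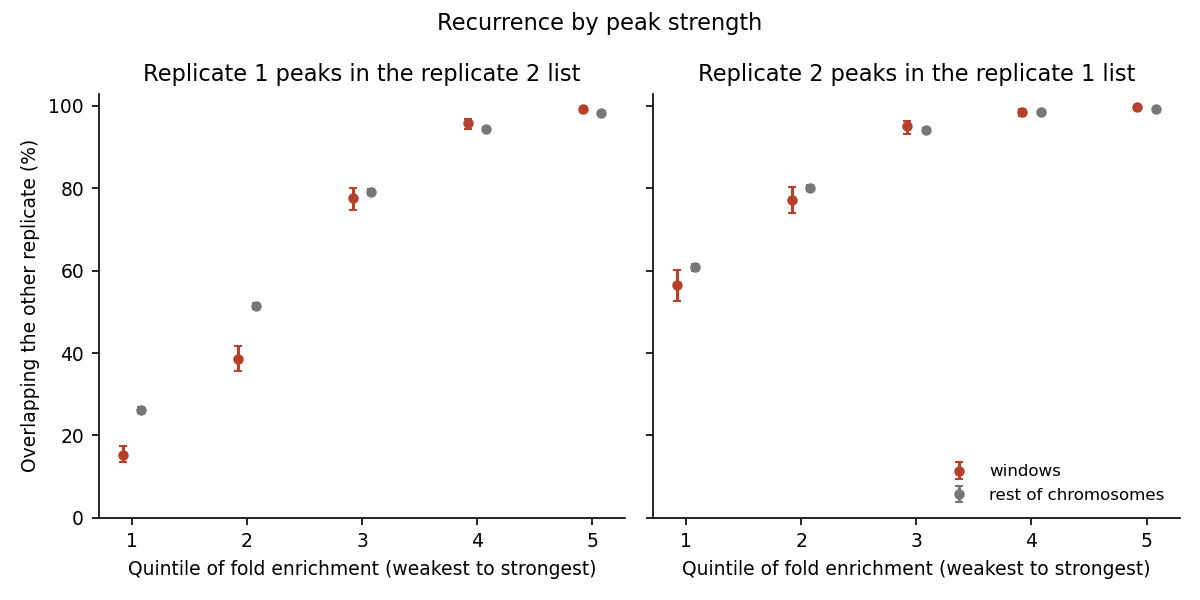
Percentage of peaks that overlap a peak of the other replicate (vertical axis) by quintile of fold enrichment, weakest to strongest (horizontal axis), for replicate 1 peaks (left) and replicate 2 peaks (right), in the windows and in the rest of the chromosomes; bars are Wilson 95% intervals. The windows lie below the rest in the lowest 2 quintiles of replicate 1, at 15.3% against 26.2% and 38.5% against 51.4%, and close to it in the upper 3.

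By distance outwards in steps of 3 Mb, 61.6%, 63.9%, 62.5%, 66.6% and 66.4% of replicate 1 peaks recurred, and 86.4%, 89.3%, 85.4%, 87.5% and 89.7% of replicate 2 peaks. In the innermost 1 Mb on either side of the centre the shares were 57.1% (49.98 to 63.9%) of 191 peaks and 81.5% (74.1 to 87.1%) of 135. Between the zone within 5 Mb and that at 10 to 15 Mb, replicate 1 differed by -4.32 ± 4.35 points, lower on 9 of 10 chromosomes (exact test by sign flips, p = 0.0117, adjusted p = 0.0301). This call was lost with equal weights for the quintiles (-2.81 ± 4.47 points, exact test, adjusted p = 0.134). It was also lost with equal numbers of peaks (-1.30 points, adjusted p = 0.460 by the exact test), with summits within 50 bp (-2.70 points, 0.211) and at 3 against 12 to 15 Mb (-5.14 points, 0.0879). With a −log10 q of at least 20 in both lists it turned to 0.695 points (exact test, adjusted p = 0.778). Of the 5 alternatives run the call held under 1, an overlap of 50%. Replicate 2 differed by -1.33 ± 4.85 points (lower on 7 of 10, exact sign-flip p = 0.393, adjusted p = 0.471).

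The 1931 replicate 1 peaks of the windows with no partner had medians of 82 bp in width and 5.52 in fold enrichment, and the 3511 shared ones 235 bp and 9.76. The 492 unpartnered replicate 2 peaks had 83 bp and 5.52, and the 3531 shared ones 203 bp and 8.35. Peaks found in 1 library were therefore narrow and close to the lowest fold enrichment in the lists, 5, in both replicates, and replicate 1 had more of them.

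Of the merged sites in the windows, 3480 (75.9%, 74.7 to 77.2%) overlapped a peak of both replicates, against 76.5% over the whole merged list. A further 745 (16.3%) overlapped replicate 1 alone, 255 (5.57%) replicate 2 alone and 102 (2.23%) neither. In the rest of the chromosomes the matching shares of merged sites were close to these, at 15.9%, 5.84% and 1.70%, and the differences were not tested. The share found in both hardly moved with distance, at 75.1%, 76.7%, 75.8%, 75.2% and 76.7% per step outwards. Chromosome 8 had the lowest share, 72.4%, and chromosome 7 the highest, 80.8%. The merged list was made from these libraries, so this is not independent evidence of recurrence.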

How the data were processed

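The data are 3 peak lists from MH-seq libraries of 2 replicates of 1 group. MACS2, Bowtie2, fastp 0.20.0, deepTools, SAMtools 1.5 and ChIPseeker are named in the submitters' processing notes, with B73 RefGen_v4 as the build. Their settings and the making of the merged list were not given in the sources used here. The authors deposited for each peak its ends, summit, fold enrichment (a ratio), −log10 p and −log10 q. The deposited score was not used.

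Lists were used as deposited, with Python 3.11.15, pandas 2.3.3, numpy 2.4.6 and SciPy 1.17.1. Summits were placed in windows 15 Mb to either side of each centre. Chromosome lengths are the last peak end, a lower bound. A peak recurred when it overlapped the other replicate by 1 bp. Chromosome values were compared by exact two-sided sign-flip permutation over 10 chromosomes, adjusted by Benjamini-Hochberg over 18 tests. Each p-value is the share of the 1024 sign patterns whose summed difference is at least as large in size as the observed one. Chromosomes of 1 genome are not biological replicates, and the p-values describe consistency over them only. Alternatives changed the list, the −log10 q limit, the overlap, joining within 100 bp, window width and comparator. Procedures were tested on simulated peaks. The windows and measures were chosen with earlier results of these data known. Named sites are, per window, the nearest to the centre and the longest empty stretch, and, over windows, the 10 strongest, the widest, the densest and sparsest bins and the longest run. The only gene table used carries coordinates of a different assembly, so genes and sequences are left out.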

Additional observations from a re-analysis of the deposited data

How the results depend on the processing

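Of 105 tested differences recomputed under alternatives, 72 kept their direction and their side of the threshold. The lower density in the windows and near their centres kept both under all 13 alternatives run for them (log2 ratio -1.33 to -0.58 and -0.90 to -0.62), and the count of sites stayed within 1.5-fold under its 5 (3457 to 5442). Inside against rest, and near (within 5 Mb) against far (10 to 15 Mb), are given below in the units of the report. With 1 replicate left out, the inside difference ranged from -17.05 to 1.55 bp in width, from 0.018 to 0.647 in fold enrichment and from -0.768 to 1.66 points in the share of next summits within 1 kb. The near difference ranged from -6.90 to 5.20 bp in width, from -0.237 to 0.247 in fold enrichment and from 0.61 to 0.64 in log2 gap, passing the test without replicate 2. Among merged peaks in both replicates the inside difference was 8.45 bp in width and 2.81 points in close neighbours, and the near log2 gap 0.66; all 3 passed.

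With a −log10 q of at least 20, inside width (11.5 bp), inside close neighbours (2.15 points), near log2 gap (0.76) and inside recurrence of replicate 2 (2.04 points) passed. For recurrence this limit cut the lists of both replicates, so partners below it were not counted. Recurrence of replicate 1 turned to 8.01 points inside and 0.695 near, or 3.15 and 1.15 at matched strength. Replicate 2 turned to 0.847 points near, and at matched strength to 1.31 inside and 1.03 near. Joining peaks within 100 bp, inside close neighbours (2.45 points) and near log2 gap (0.62) passed. With a 50% overlap, replicate 2 recurrence passed inside (3.14 points) and, at matched strength, near (-4.54). With equal numbers of peaks, replicate 1 recurrence no longer passed inside (-1.34) or near (-1.30), and replicate 2 passed inside (2.64). Near recurrence of replicate 1 did not pass with summits within 50 bp (-2.70) or at 3 against 12 to 15 Mb (-5.14). Against the 15 Mb flanks, inside fold enrichment (0.202) and matched replicate 1 recurrence (-1.92) did not pass, and close neighbours turned to -0.0494 points. In windows of 10 Mb to each side, matched replicate 2 recurrence passed inside (-2.01). The pair ratio, whose alternatives were chosen after seeing the data, was 2.82 with the −log10 q limit and 2.67 with joining. Both were computed in the windows only, and joining removes close pairs wherever it is applied. They therefore do not show whether the contrast with the rest grew. The causes were not tested. No paired analysis was possible because there is 1 group. Depth is unknown.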
